A study of Homo sapiens with 6 samples.

Results

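A set of 10 genes of the ATF4 axis, namely ATF4, ATF5, DDIT3, TRIB3, CHAC1, ASNS, NUPR1, SLC7A11, SLC3A2 and SLC7A5, was followed in polyA+ RNA-seq of DLD-1 cells carrying an ARMC5 shRNA. All 10 were among the 13737 genes tested. The list was chosen from known ATF4 biology with the shARMC5 against shNT values of these same libraries already seen, so the fold changes of the 10 genes are given as a description, without p-values, and nothing is read from their calls in the fit over all genes. DLD-1 is a human colorectal adenocarcinoma line, and the line used here, SPT5-AID, carries a degron tag on the elongation factor SPT5 in every library of both groups. The groups are shARMC5 (lentiviral shRNA against ARMC5, an adaptor of the CUL3 ubiquitin ligase) and shNT (nontargeting shRNA), with 3 libraries each. The labels name no auxin, the compound that triggers loss of the tagged SPT5, for either group. The methods of the study list more than 1 ARMC5 construct without naming the one in these libraries, and state that N counts biological replicates. The labels do not say whether the 3 libraries of a group came from separate infections, so the spread given here is that between these libraries.

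In the integrated stress response, kinases that sense amino acid shortage, unfolded protein in the endoplasmic reticulum (ER), double-stranded RNA or heme deficiency phosphorylate the translation initiation factor eIF2, which lowers general protein synthesis and favors translation of the ATF4 mRNA. ATF4 is a basic leucine zipper (bZIP) transcription factor that pairs with C/EBP proteins and related factors at composite elements near genes for amino acid uptake, amino acid synthesis, tRNA charging and redox balance. Since ATF4 is controlled to a large degree by translation, an mRNA level does not measure its protein or its activity. In proliferating colon carcinoma cells such genes supply asparagine, serine, leucine and cystine.

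Promoter windows of RefSeq genes (GRCh38.p14, 250 bases before each start site) held 8 of the 10 genes, the other two being NUPR1 and SLC7A11. The C/EBP-ATF composite element was searched as TGATGNAA on both strands, and CHAC1 and ASNS were the members that held it. Their sites are shown because this is the kind of element ATF4 binds with a C/EBP partner. The motif is in capitals in each 30-base stretch, read 5′ to 3′ on the strand of the gene.
CHAC1: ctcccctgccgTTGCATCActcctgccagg
ASNS: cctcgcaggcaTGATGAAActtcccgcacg

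The CHAC1 stretch lies at chr15:40953251-40953280 on the plus strand. Its motif reads TGATGCAA on the opposite strand, begins 209 bases before the RefSeq start and falls in a noncoding part of an exon in 1 of the 3 annotated transcripts, CHAC1-201. The ASNS stretch lies at chr7:97872458-97872487 on the minus strand. Its motif begins 68 bases before the start, on the strand of the gene, and falls in noncoding exon sequence of 2 of 17 transcripts, ASNS-201 and ASNS-211. The same letters were found in 3.14% of all 35116 windows and for 3.89% of 27305 genes. The cAMP response element, searched as TGACGTCA on both strands, was in 0 of the 8 members in the table and in 1.65% of windows. The ER stress response element was also in 0 of the 8, and in 0.074% of windows. These matches describe letters in a window and not binding.

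ARMC5 itself, the targeted gene, was at 10.8, 12 and 12.9 CPM (counts per 1000000 gene reads, scaled by the trimmed mean of M values, TMM) in shARMC5 libraries 1 to 3. It was at 23, 25.9 and 26.7 CPM in the shNT libraries, so that every knockdown library lay below every control. The libraries held 26201112 to 40866478 assigned reads. Of the epithelial markers, EPCAM (960 CPM in shARMC5, 941 in shNT), CDH1, KRT8, KRT18 and CDX2 were abundant. By edgeR with Benjamini-Hochberg adjustment, KRT8 (log2 fold change 0.18 ± 0.02) and KRT18 (0.25 ± 0.03) were called higher in shARMC5 and VIL1 (-1.30 ± 0.11) lower. These were 3 of 6 tested epithelial markers (50%, against 7.75% of all tested genes). VIL1 (4.54 CPM against 11.1) and LGALS4 (0.133 against 0.327) were low, CDX1 was at 0 in all 6 libraries and KRT20 was not analysed here. Of 8 markers of other cell types, 4 passed the count filter and 0 were called (0%, against 7.75% of all tested genes). At an unadjusted p under 0.05 there were 0, and DESeq2 called 0. With only 4 tested, nothing is read from this count. CD3E and COL3A1 were at 0 in every library. In such bulk samples, fewer cells that express a gene and less RNA per cell cannot be told apart.

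Per length, in TPM (reads scaled to transcript length and then to the library), the 10 genes covered a wide range in the control cells. ATF4 was the highest at 467 ± 21.8 TPM (SD, n = 3 here and below), above 98% of the tested genes. It was followed by the transporter subunits SLC3A2 (331 ± 7.09) and SLC7A5 (249 ± 14.5). ASNS (128 ± 6.06) and TRIB3 (118 ± 6.59) came next, and the ranges of these 2 overlapped, whereas every other pair of neighbors in the order was separate in all 3 control libraries. ATF5 (42.6 ± 1.8), CHAC1 (28.9 ± 2.34) and DDIT3 (16.1 ± 0.562) were lower. NUPR1 (12.4 ± 2.85) and SLC7A11 (8.04 ± 0.256) were at the bottom on matched transcripts, the last above 35.3% of the tested genes. The unmatched transcript listed after SLC7A11, described with the transporters, was at 8.42, 8.87 and 3.88 TPM in shNT libraries 1 to 3, and counting it would put SLC7A11 higher.

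**Figure D1:**
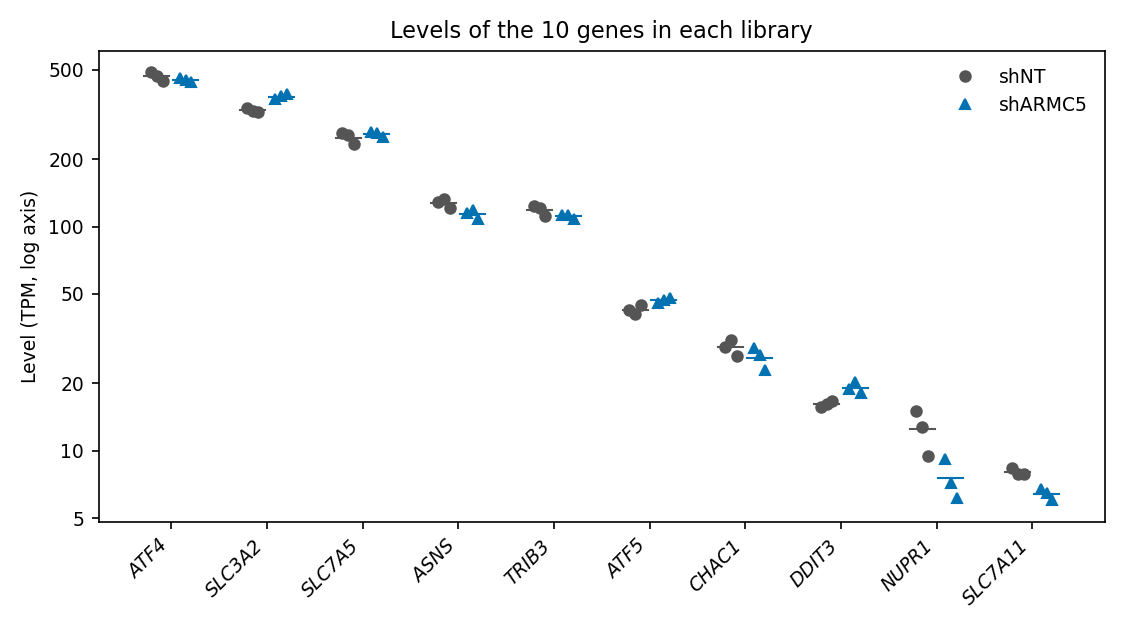
TPM (log axis) of each gene in each of the 3 shNT (circles) and 3 shARMC5 (triangles) libraries, with a line at the mean of each group, in order of the control level. SLC3A2 and DDIT3 sit higher in all shARMC5 libraries, and NUPR1 and SLC7A11 (matched transcripts) sit lower, while ATF4 overlaps.

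Among the transcription factors of the axis, the groups overlapped for ATF4 and were separate for ATF5 and DDIT3. ATF4 (chr22:39519695-39522683, plus strand, GENCODE 44 on hg38) was at 433, 425 and 424 CPM in shARMC5 libraries 1 to 3 and at 440, 442 and 429 CPM in shNT libraries 1 to 3. The groups overlapped, with shARMC5 1 above shNT 3, and the log2 fold change was -0.03 ± 0.02 (standard error, SE, of the edgeR model, as for all fold changes here). ATF5 (chr19:49928702-49933935, plus strand), a bZIP relative whose mRNA is under a similar translational control, was at 56.5, 57.6 and 59.6 CPM against 50.1, 51.4 and 55.3 CPM. Every shARMC5 library was above every control, by a log2 fold change of 0.15 ± 0.05, and the nearest libraries of the groups were shARMC5 1 and shNT 3.

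DDIT3 (chr12:57516588-57521737, minus strand) encodes CHOP, the bZIP factor linked with cell death under lasting ER stress. It was at 10.6, 11.3 and 10.3 CPM in shARMC5 and at 8.26, 8.91 and 9.46 CPM in shNT. The groups did not overlap and DDIT3 was higher by 0.28 ± 0.09 on the log2 scale, from 260 to 444 reads per library. Per 1000 TPM of ATF4, DDIT3 stood at 42.5 ± 2.21 TPM in shARMC5 and 34.6 ± 2.83 TPM in shNT, without overlap, whereas ATF5 per ATF4 overlapped between the groups (104 ± 5 and 91.4 ± 7.59). The kit does not mark strand, and parts of DDIT3 and ATF5 are overlapped on the other strand by well-expressed genes. MARS1 (6196 to 10221 reads per library) covers 982 bases of DDIT3. MBD6 (1238 to 1734 reads) covers 1028 bases, which among the DDIT3 transcripts only DDIT3-206 reaches. That transcript held 0 reads in all 6 libraries. NUP62 (3094 to 4733 reads) covers 1063 bases of ATF5. The part of such reads in the values of DDIT3 and ATF5 was not tested.

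Of the stress effectors downstream of ATF4, NUPR1 had the largest fold change of the 10 genes. NUPR1 (chr16:28532708-28539008, minus strand), a small stress-induced chromatin-associated protein, was at 5.51, 4.41 and 3.89 CPM in shARMC5 and 7.28, 7.12 and 5.75 CPM in shNT. All shARMC5 libraries were below all controls, although shARMC5 1 and shNT 3 were close, and the log2 fold change was -0.54 ± 0.15. It was also the gene with the fewest reads, 98 to 238 per library. When 1 library at a time was left out, its log2 fold change ran from -0.69 to -0.44. Per 1000 TPM of ATF4, NUPR1 was at 16.7 ± 3.05 TPM in shARMC5 and 26.5 ± 4.91 TPM in shNT, again without overlap.

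TRIB3 (chr20:362835-397559, plus strand), a pseudokinase that is induced by ATF4 and DDIT3 and restrains them in turn, was at 153, 154 and 152 CPM in shARMC5. It was at 161, 166 and 154 CPM in shNT. On unrounded CPM the groups did not overlap, but shARMC5 2 and shNT 3 were nearly level, in TPM the groups overlapped, and the log2 fold change was only -0.07 ± 0.03. CHAC1 (chr15:40952962-40956512, plus strand), which cleaves glutathione, was at 26.8, 25.7 and 22.7 CPM against 26.4, 30 and 25.8 CPM. Here shARMC5 1 exceeded shNT 1 and shNT 3, and the log2 fold change of -0.13 ± 0.07 came with overlapping groups. With 1 library left out at a time, the log2 fold change of CHAC1 ran from -0.18 (without shARMC5 1) to -0.056 (without shNT 2) and was -0.066 without shARMC5 3, and that of TRIB3 ran from -0.10 (without shNT 3) to -0.045 (without shNT 2). TRIB3 and CHAC1 per ATF4 overlapped between the groups as well.

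ASNS (chr7:97851677-97872542, minus strand), which makes asparagine from aspartate and glutamine, was at 141, 141 and 131 CPM in shARMC5. It was at 151, 157 and 143 CPM in shNT. The groups were separate, with shARMC5 lower by a log2 fold change of -0.13 ± 0.04, the same rounded size as that of CHAC1 but with a smaller error. Per 1000 TPM of ATF4, ASNS was at 253 ± 9.2 TPM in shARMC5 and 274 ± 9.21 TPM in shNT, without overlap.

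The transporter subunits pair a shared heavy chain with light chains that set what is carried. SLC3A2 (chr11:62856004-62888880, plus strand) encodes the heavy chain, CD98hc, that brings several light chains to the plasma membrane. It was at 387, 401 and 411 CPM in shARMC5 and 341, 352 and 366 CPM in shNT. Every shARMC5 library was above every control, with a log2 fold change of 0.18 ± 0.03.

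SLC7A11 (chr4:138164097-138242349, minus strand), the light chain of the cystine/glutamate antiporter, was at 36.7, 36.1 and 32.4 CPM in shARMC5. It was at 44.6, 41.9 and 39.9 CPM in shNT. Every shARMC5 library was below every control, with a log2 fold change of -0.26 ± 0.06 on matched transcripts, a direction that turned when an unmatched transcript was counted. SLC7A5 (chr16:87830023-87869507, minus strand), the light chain LAT1 that takes up leucine and other large neutral amino acids, was at 810, 806 and 785 CPM against 769, 787 and 733 CPM. The shARMC5 3 library was below shNT 2, so the groups overlapped, and the log2 fold change was 0.07 ± 0.03, with 0.04 to 0.092 when 1 library was left out (lowest without shNT 3, highest without shNT 2).

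Set against their shared heavy chain and counting matched transcripts only, both light chain mRNAs were lower after knockdown. Per 1000 TPM of SLC3A2, SLC7A11 was at 18.1, 17 and 15.5 TPM in shARMC5 and 24.6, 24.1 and 24.2 TPM in shNT (means 16.9 ± 1.35 and 24.3 ± 0.265). SLC7A5 was at 714, 688 and 647 TPM per 1000 TPM of SLC3A2 in shARMC5 and 767, 778 and 715 TPM in shNT (means 683 ± 33.4 and 753 ± 33.6). On these transcripts the groups were far apart for SLC7A11, while for SLC7A5 shARMC5 1 and shNT 3 were nearly level. Per 1000 TPM of SLC7A5, SLC7A11 was at 24.7 ± 0.776 and 32.3 ± 1.46 TPM, also without overlap on matched transcripts. The ratios are between mRNAs and do not measure how many transporter complexes were made.

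**Figure D2:**
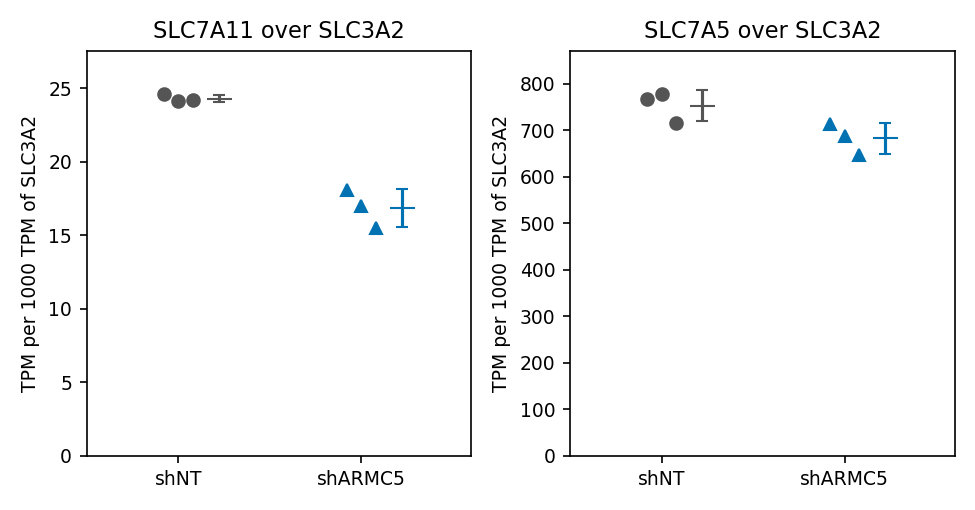
TPM of SLC7A11 (left) and SLC7A5 (right) per 1000 TPM of SLC3A2 in each shNT (circles) and shARMC5 (triangles) library, with the mean and SD beside them and axes from 0. The shARMC5 values for SLC7A11, 15.5 to 18.1, lie below the controls at 24.1 to 24.6, and the gap is smaller for SLC7A5. Only matched transcripts are counted.

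The direction for SLC7A11 rests on which transcripts are counted. The deposited lists hold a transcript of 4218 bases (ENST00000368563), listed directly after those of SLC7A11. It matched no GENCODE 44 gene and was left out. The next matched transcript belongs to TUBGCP2 on chromosome 10, and nothing in the sources used here assigns the unmatched one to either gene. Adding the unmatched transcript to SLC7A11 rests on its place in the list alone. Its reads numbered 660, 1584 and 846 in shARMC5 and 767, 836 and 323 in shNT. When all unmatched transcripts were added to the gene listed before them, the log2 fold change of SLC7A11 turned to 0.10. With that transcript added, SLC7A11 per 1000 TPM of SLC3A2 was at 38.4, 53.4 and 44.6 TPM in shARMC5 and 49.5, 51.2 and 36.1 TPM in shNT, so the groups overlapped with nearly equal means (45.5 ± 7.54 and 45.6 ± 8.23). Per 1000 TPM of SLC7A5 it was then at 66.8 ± 12 TPM in shARMC5 and 60.3 ± 8.45 TPM in shNT, with overlap. Under the remaining alternatives the log2 fold change ran from -0.31 to -0.21.

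Of the 10 genes, 5 were called at an adjusted p under 0.1, where 7.75% of all tested genes were called. The 2 called higher were ATF5 and SLC3A2 (background 4.44%), and the 3 called lower were ASNS, NUPR1 and SLC7A11 (background 3.30%). For 7 genes the CPM values of the groups did not overlap, 3 higher and 4 lower, where 23.4% of all tested genes did not overlap. As the genes were picked with this contrast known, nothing is read from these counts. The median log2 fold change was -0.05 over the 10 genes and -0.0014 over all tested genes, the median size without sign 0.14 and 0.078, and in this fit all 10 genes changed by less than 1.5-fold. NUPR1 went past that size in TPM (ratio 0.605), with the length offset (-0.70) and with a library left out (-0.69). The signs of all but SLC7A11 were kept in each of 16 alternative analyses, and the call of SLC3A2 was kept in 16. ATF5 lost its call in 9 and ASNS in 6. Leaving out shNT 1 ended the calls of ATF5, ASNS, NUPR1 and SLC7A11, and leaving out shARMC5 2, shNT 2 or shARMC5 3 each ended those of ATF5, ASNS and NUPR1. An offset for transcript length in edgeR ended those 3 as well, NUPR1 then being at -0.70. SLC7A5 was called higher without shNT 2.

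**Figure D3:**
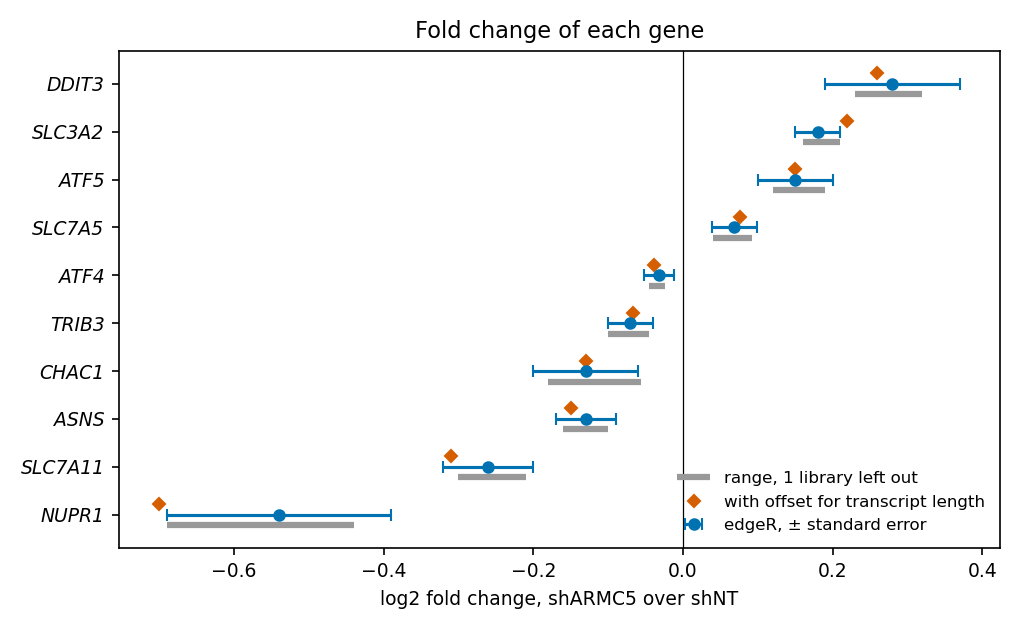
Log2 fold change of each gene, shARMC5 over shNT, from edgeR with its SE (circles), with an offset for transcript length (diamonds), and the range when each library was left out in turn (grey bars). DDIT3, SLC3A2, ATF5 and SLC7A5 lie above 0 and the other genes below it, and NUPR1 has the widest SE, 0.15.

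Of the genes, 5 put nearly all their matched reads on 1 transcript, a count that for SLC7A11 leaves out the unmatched transcript. ATF4-202 held a mean of 98% of the ATF4 reads over the 6 libraries, TRIB3-201 99%, SLC7A11-201 99.7%, CHAC1-203 96.6% and ATF5-201 93.1%. The transcript SLC7A5-201 held 89.6% of its gene. SLC3A2 had 4 transcripts of at least 5% of its reads, led by SLC3A2-201 with 62.8% ± 1.46 in shARMC5 and 63.3% ± 1.81 in shNT. The higher SLC3A2 level was thus not accompanied by a different main transcript. Below 5%, SLC3A2-208 had 88, 119 and 119 estimated reads in shARMC5 libraries 1 to 3 and 0 in each shNT library. SLC3A2-205, also below 5%, had 111, 0 and 0 in shARMC5 and 131, 159 and 87 in shNT.

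DDIT3, ASNS and NUPR1 were spread over more transcripts, and their shares varied widely within a group. DDIT3-201 held 68.9% ± 8.01 of the reads in shARMC5 and 66.4% ± 10.3 in shNT, and DDIT3-202 20% ± 5.83 and 20.6% ± 5.39. ASNS had 6 transcripts of at least 5%, with ASNS-209 at 20.5% to 36.6% in shARMC5 and 29.3% to 32.6% in shNT and the reference transcript ASNS-202 at 27.7% ± 2.02 and 25.8% ± 1.01. All of these overlapped between the groups.

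In NUPR1 the short coding transcript NUPR1-202 (550 bases) held 39.5%, 32.2% and 24.1% of the reads in shARMC5 and 46.2%, 40.8% and 40.9% in shNT. The long NUPR1-201 (5491 bases) held 56.9%, 57.4% and 56.2% in shARMC5 and 46%, 53.6% and 56% in shNT. In read shares the groups were separate on both transcripts, but by small gaps. As shares of the TPM of the gene, NUPR1-202 was at 84.4%, 71% and 53% in shARMC5 and 81.9%, 82.4% and 85.7% in shNT, so the groups overlapped. NUPR1-201 was then at 8.68%, 8.9% and 8.75% in shARMC5 and 5.87%, 7.61% and 8.46% in shNT, still separate. The remaining transcript NUPR1-203, annotated for nonsense-mediated decay, was at 6.92%, 20.1% and 38.3% of the TPM in shARMC5. In shNT it was at 12.3%, 10% and 5.81%, so the groups overlapped. At most 238 reads per library lay behind the shares, and the split between transcripts is an estimate. The annotated lncRNA ENSG00000289754, on the strand of NUPR1, covers 1969 bases of the gene and has no value used here. Larger overlaps by lncRNAs without a value used here were those of ENSG00000284707 and SLC7A11-AS1. The first covers 20855 bases of ASNS on its strand, the second 14081 bases of SLC7A11 on the other strand. These overlaps count the whole span of a gene, introns included.

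**Figure D4:**
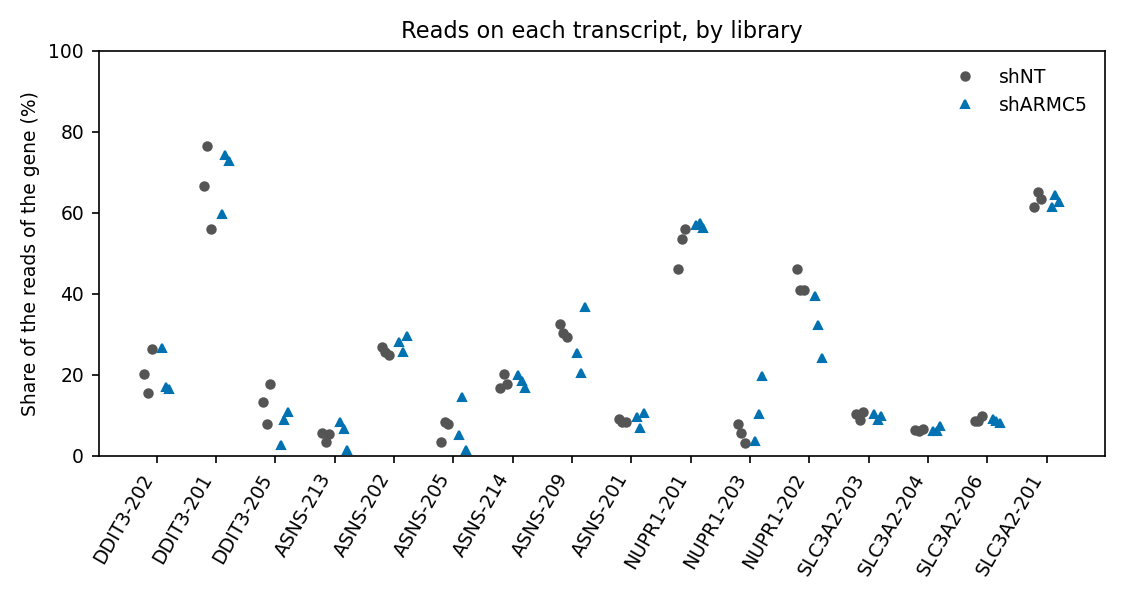
Share (%) of the reads of a gene on each transcript with a mean share of at least 5%, for DDIT3, ASNS, NUPR1 and SLC3A2, in each shNT (circles) and shARMC5 (triangles) library. SLC3A2-201 is steady near 63.1%, and NUPR1-202 is lower in all shARMC5 libraries by read share, though not by TPM share.

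The wider pathway was read through 7 lists that leave out the 10 genes, written with earlier results of these data known. They hold 155 genes, of which 137 were tested and 21 were called by edgeR's quasi-likelihood test with Benjamini-Hochberg adjustment (15.3%, against 7.75% of all tested genes). Of these, 8 were higher and 13 lower. Scaled by library size without TMM factors, 4 were higher and 13 lower. Of all tested genes, 610 were called higher and 454 lower with TMM factors, and 458 higher and 495 lower without them. The balance of directions over all genes thus depended on the scaling. The median log2 fold change over the 137 was -0.006. As the lists were written with earlier results known, nothing is read from their calls exceeding the share of all tested genes.

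Upstream, 2 of the 20 tested genes for eIF2, its kinases and its phosphatases were called (10%, near the 7.75% of all tested genes). EIF2AK1, the heme-regulated eIF2 kinase, fell from 298 ± 3.88 CPM in shNT to 255 ± 2.64 CPM in shARMC5 (log2 fold change -0.22 ± 0.03, edgeR adjusted p = 5.73e-05). PPP1R15A, the inducible subunit GADD34 that directs phosphatase to eIF2, rose from 47.3 ± 1.65 to 59.1 ± 4.33 CPM (0.32 ± 0.05, edgeR adjusted p = 0.00138). Both calls were kept in all 16 alternatives. The kinases EIF2AK2 (-0.05 ± 0.03), EIF2AK3 (-0.01 ± 0.06) and EIF2AK4 (-0.04 ± 0.03) did not pass the threshold.

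Of 20 tested bZIP partners and relatives of ATF4, 3 rose and 0 fell (15% called, against 7.75% of all tested genes, of which 4.44% rose and 3.30% fell). These were the AP-1 subunits FOSL1 (0.27 ± 0.07, edgeR adjusted p = 0.0327) and JUNB (0.16 ± 0.05, edgeR adjusted p = 0.0697) and the small MAF protein MAFF (0.38 ± 0.10, edgeR adjusted p = 0.0444). In each, every shARMC5 library was above every control. With the transcript length offset 0 of the list were called by edgeR and 1 by DESeq2. Over all 13737 tested genes, 235 and 568 were then called. Without shNT 1 or without shARMC5 2, 0 of the list were called, and without shARMC5 1 or without shNT 3, 1 was. Leaving out shNT 1, shARMC5 2 or shNT 3 also lowered the count of calls over all tested genes. JUNB lost its call in 10 of 16 alternatives. The C/EBP partners CEBPB (-0.12 ± 0.06) and CEBPG (-0.01 ± 0.05), and ATF3 (0.09 ± 0.12), did not pass.

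Of other ATF4 target genes, the longest list, 13 of 43 tested were called (30.2%, against 7.75% of all tested genes), with 2 higher and 11 lower (4.44% and 3.30% of all tested genes) and a median log2 fold change of -0.07. The higher genes were PPP1R15A and GDF15, a secreted stress cytokine, which rose from 111 ± 3.75 to 142 ± 5.08 CPM (0.37 ± 0.04, edgeR adjusted p = 1.08e-05). The genes that fell most included TXNIP, which binds thioredoxin (-0.43 ± 0.11, edgeR adjusted p = 0.0585), and DDIT4, a restrainer of mTORC1 (-0.32 ± 0.05, edgeR adjusted p = 0.0041). The neutral amino acid transporter SLC1A4 fell from 180 ± 6.34 to 151 ± 4 CPM (-0.26 ± 0.03, edgeR adjusted p = 0.000162). NIBAN1 (-0.26 ± 0.07, edgeR adjusted p = 0.0529) and PCK2, the mitochondrial phosphoenolpyruvate carboxykinase (-0.19 ± 0.05, edgeR adjusted p = 0.021), completed the 5. The calls of GDF15, DDIT4 and SLC1A4 were kept in all 16 alternatives, while TXNIP and NIBAN1 lost theirs in 6 each and PCK2 in 1. With the transcript length offset in edgeR, 2 of the list were called higher and 3 lower, where 235 of all 13737 tested genes were called. Without shNT 1, 7 of the list were called. Leaving out that library also gave the fewest calls over all tested genes of any library left out.

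Among the relatives of the transporters, 7 of 12 SLC7 and SLC3 genes were tested and 3 were called (42.9%, against 7.75% of all tested genes). With the transcript length offset 0 were called by edgeR and 1 by DESeq2, where 235 and 568 of all 13737 tested genes were called. Without shNT 1 or without shNT 2, 1 of the list was called. SLC7A8, the light chain LAT2, fell from 246 ± 4.66 to 212 ± 2.7 CPM (-0.22 ± 0.03, edgeR adjusted p = 0.000111). The cationic amino acid transporter SLC7A1 fell (-0.15 ± 0.04, edgeR adjusted p = 0.0409), while SLC7A2, of the same kind, rose (0.24 ± 0.08, edgeR adjusted p = 0.0936) with overlapping groups. The value of SLC7A2 turned to -0.12 when unmatched transcripts were added to the gene listed before them, and its call was lost in 11 alternatives. SLC7A1 lost its call in 5 and SLC7A8 in 1. Of 18 tested amino acid transporters of other families, SLC1A4 was the only call (5.56%, against the same 7.75%). The glutamine transporters SLC1A5 (0.02 ± 0.03) and SLC38A2 (-0.02 ± 0.04) did not pass.

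Genes for glutathione synthesis and breakdown use the cystine that SLC7A11 brings in and the product that CHAC1 cleaves. Of 14 tested, 0 were called by edgeR (0%, against 7.75% of all tested genes) and DESeq2 called 1. In edgeR 6 had an unadjusted p under 0.05. The share of all tested genes under that p is not given here, so nothing is read from the 6. GCLM (0.09 ± 0.04) and GCLC (-0.04 ± 0.04), the subunits of the rate-limiting ligase, did not pass. Of 26 tested ER chaperones and genes of the ATF6 and XBP1 arms, 2 rose (7.69%, against 7.75% of all tested genes called in either direction). HSPA5, the chaperone BiP, went from 828 ± 18.5 to 877 ± 17.1 CPM (0.08 ± 0.03, edgeR adjusted p = 0.0991), and DNAJB11 rose by 0.12 ± 0.04 (edgeR adjusted p = 0.0956). Each of these 2 calls was lost in 10 of 16 alternatives. Scaled by library size alone 0 of this list were called, where 953 of all 13737 tested genes were. With the transcript length offset 0 were higher and 1 lower in both edgeR and DESeq2, where 235 and 568 of all tested genes were called. Without shNT 1, shARMC5 2 or shARMC5 3, 0 of the list were called. XBP1 (-0.26 ± 0.12), HERPUD1 (-0.01 ± 0.05) and DNAJB9 (-0.01 ± 0.08) did not pass.

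**Figure D5:**
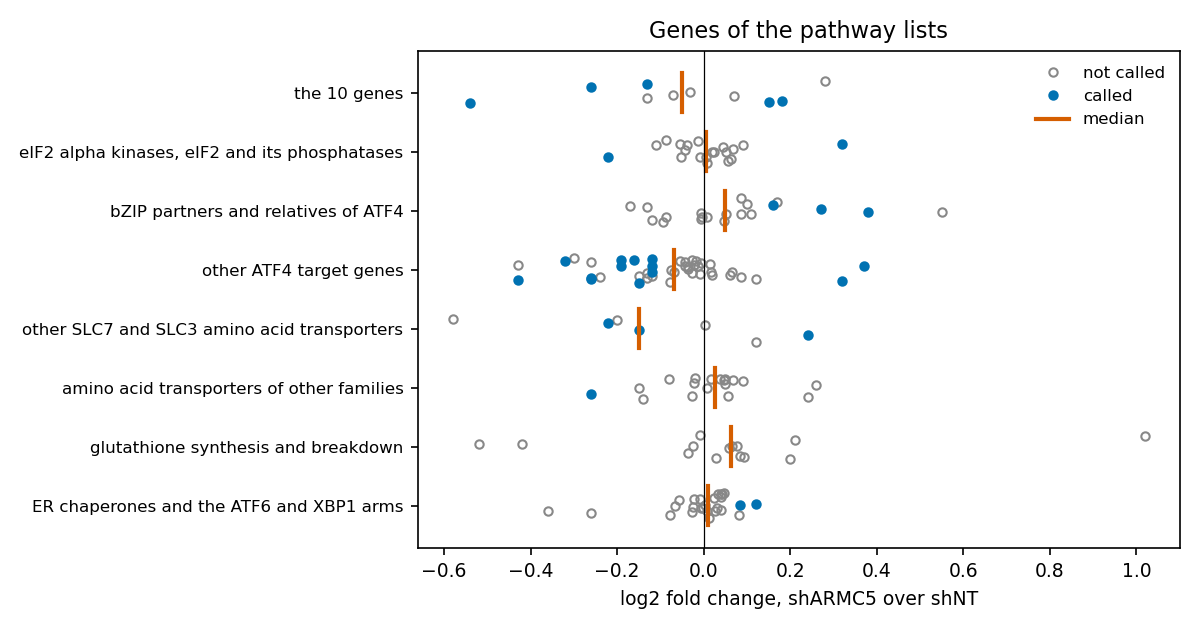
Log2 fold change, shARMC5 over shNT, of the 10 genes and of each tested gene of the 7 lists (points, filled where called at an adjusted p under 0.1; an orange line marks the median of a list; genes in 2 lists appear in both). Called genes of the other ATF4 target list lie mostly below 0, with GDF15 and PPP1R15A above it.

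The genes whose course over the 6 libraries was most like that of ATF4 were PROSER1, SHMT2 and NUP155. For each of them the root mean square difference from ATF4 in centered log2 CPM was 0.008, among the 10369 genes that averaged 5 CPM or more, where ATF4 itself varied by 0.023. For NUPR1 the nearest genes were ZNF431 (0.080), ZNF680 (0.127) and HSPG2 (0.129), where NUPR1 varied by 0.331.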

How the data were processed

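PolyA+ RNA of 6 libraries was sequenced by the authors. The deposited files give, for each of 177456 transcripts, expected counts estimated by Salmon (version 1.9.0, after cutadapt 4.2, with hg38 named in the submitters' processing notes) and TPM, which the authors' tool scales to transcript length and to the library; the transcript set is not given in the sources used here. Transcripts were matched to GENCODE 44 genes by identifier without version. The 11923 unmatched transcripts (2.96% to 3.04% of reads) were left out. Estimated counts were summed per gene (35810 genes), rounded to whole numbers, and a gene was kept where 3 or more libraries reached 10 counts, leaving 13737 genes. edgeR 4.0.16 (R 4.3.3) gave TMM factors (0.992 to 1.02), CPM, and quasi-likelihood F tests of shARMC5 against shNT, with Benjamini-Hochberg adjustment over all tested genes and a threshold of 0.1. The procedure was tested on simulated data, whose outcome is not given here and is not used. The study ran DESeq2, which is an alternative here (1.42.0), with and without an offset for transcript length. Other alternatives were other scaling, other count filters, the replicate number as a block, each library left out, a threshold of 0.05 and unmatched transcripts added to the gene listed before them. Transcript shares are the reads of a transcript over those of its gene. Levels were compared between genes only in TPM. The members and lists were chosen with earlier results of these data known. The genes named are the 10 members, the called genes of each list, at most 5 each way by size of log2 fold change, the 3 genes nearest to ATF4 and to NUPR1, and ARMC5. The genes of the lists named without a call, and the markers, fall outside that rule and were chosen after their values were seen. Depth limits precision most for NUPR1 and DDIT3.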

Additional observations from a re-analysis of the deposited data

How the results depend on the processing

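At the threshold of 0.1, 1064 of all tested genes were called. The count was 235 with the transcript length offset in edgeR, 568 with DESeq2 and that offset, 676 at an adjusted p under 0.05, and 536 to 1085 when each library was left out, the lowest without shNT 1 (536), shARMC5 2 (600) and shNT 3 (694). Of the other pathway genes, 21 were called, and 7, 12 and 13 under the first 3 of these settings and 9 to 18 with a library left out (9 without shNT 1, 12 without shARMC5 2). Of the other ATF4 target genes, 13 were called, 5 with the offset in edgeR, 7 with DESeq2 and the offset, and 7 to 11 with a library left out (7 without shNT 1). The log2 fold changes of SLC7A11 (0.10) and SLC7A2 (-0.12) reversed when unmatched transcripts were added to the gene listed before them; the cause was the added reads of those transcripts. In an alternative chosen after seeing the data, the difference in TPM of SLC7A11 per 1000 TPM of SLC7A5, shARMC5 minus shNT, went from -7.66 to 6.49 and that per 1000 TPM of SLC3A2 from -7.45 to -0.118. With the replicate block 1766 genes were called, DDIT3 and SLC7A5 among them. Deviations of same-numbered libraries had correlations of -0.05, -0.047 and 0.076, and 2 of 6 libraries were nearest to their own number. With 3 libraries per group this check cannot decide whether same-numbered libraries were paired. The labels do not say so either. Of 496 values of single genes under alternatives, 376 kept their direction and side of the threshold, 115 kept the direction but lost the call, 3 gained a call and 2 reversed. The causes were otherwise not tested. For 22 of 23 transcripts the difference in share between groups was counted as unchanged (moved by less than 1 SD) when taken from TPM. The other was SLC7A11-201, with means of 99.8% in shARMC5 and 99.5% in shNT by reads and 98.2% and 94.4% by TPM. Among those counted as unchanged, NUPR1-203 had means of 11.2% ± 8.07 and 5.52% ± 2.34 by reads and 21.8% ± 15.8 and 9.37% ± 3.28 by TPM.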
